A study of Rattus norvegicus with 24 samples.

Results

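The Dlk1-Dio3 locus is an imprinted region on rat chromosome 6 that holds one of the densest groups of microRNAs (miRNAs) in the genome. Members were taken by name, as every rno-miR- row of the count tables whose number, with any letter or arm, was 1 of 44 numbers assigned to the locus. This gave 90 of the 728 miRNA rows, from 48 hairpins. The rule used names and no measured value, although earlier results of these data were known when it was set. A member was described as reported when its mean reached 10 CPM (reads of the miRNA scaled to the miRNA total of the library) over the 12 libraries of a region. That held for 64 members from 44 hairpins, 63 of them in cortex and 63 in thalamus. miR-666-5p reached the minimum in thalamus alone and miR-1193-3p in cortex alone. Just inside the minimum were miR-1193-3p at 10.3 CPM and miR-381-3p at 13.5 CPM in their higher region, and just outside it were miR-665 at 9.92 CPM and miR-300-5p at 9.08 CPM. In all, 26 members stayed below it in both regions, and 2 of these, miR-299b-5p and miR-409b, had no read in any library.

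Imprinted genes are expressed from the allele of one parent. At this locus Dlk1, Rtl1 and Dio3 are made from the paternal allele, whereas Meg3 and the miRNA-bearing noncoding transcripts that follow it are made from the maternal allele. The miRNAs are cut from these transcripts and are abundant in brain, mainly in neurons. Several of them, among them miR-134 and miR-329, are known regulators of dendrite and spine growth, and the downstream group is transcribed in response to neuronal activity through Mef2.

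Small RNA was sequenced from 2 brain regions of adult male Sprague-Dawley rats killed 3 months after surgery. The 6 rats labelled TBI (traumatic brain injury) had received lateral fluid-percussion injury, in which a pulse of saline strikes the exposed dura, and the 6 sham rats had the operation without the pulse. Each rat gave 1 library of perilesional cortex and 1 of the ipsilateral thalamus, which made 4 groups of 6 libraries. The study had picked the TBI rats by magnetic resonance imaging for chronic inflammation around the lesion, so the comparison was between such rats and sham rats rather than between injury of any kind and no injury. The samples were pieces of whole tissue, in which fewer cells of a type and less RNA per cell cannot be told apart.

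The mature sequences below are those of the members on which the results turn. The first is the most abundant member, the next 4 had the smallest p values in injured cortex, and the last 5 had the smallest p values between the regions in both sham and TBI rats. Capitals mark the seed, bases 2 to 8 of the mature miRNA, which pairs with target messenger RNAs. Sequences are from RefSeq and are written 5′ to 3′.
miR-434-3p: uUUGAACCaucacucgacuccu
miR-543-3p: aAACAUUCgcggugcacuucu
miR-127-3p: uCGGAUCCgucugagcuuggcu
miR-409a-3p: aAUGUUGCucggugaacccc
miR-495: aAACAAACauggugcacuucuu
miR-758-3p: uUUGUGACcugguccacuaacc
miR-380-5p: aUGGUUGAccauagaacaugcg
miR-433-5p: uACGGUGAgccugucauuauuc
miR-341: uCGGUCGAucggucggucggu
miR-666-5p: aGCGGGCAcggcugugagag

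RefSeq sequences were found for 88 of the 90 members and for 62 of the 64 reported ones, all but miR-127-5p and miR-136-5p. Their positions refer to the assembly GRCr8, which was not the assembly used for mapping. All lay at chr6:134298094-134579828, a stretch of 281735 bases between Dlk1 and Dio3, on the plus strand except for the 3 little-read or unread sequences of miR-299b and miR-409b. They formed 2 blocks separated by 189 kb. The upstream block, chr6:134298094-134354559, held 13 hairpins from miR-770 to miR-370, and 19 reported members. The downstream block, chr6:134543460-134579828, held 35 hairpins from miR-379 to miR-410, and 45 reported members. The stretch also held 10 mature miRNAs that were not on the list and were counted among the other miRNAs. Among them miR-6331 had a mean of 152 CPM in cortex and 223 CPM in thalamus, and miR-1188-5p 6.08 and 17.1 CPM. The miR-770 hairpin lay within the RefSeq span of Meg3. The hairpins of miR-431, miR-433, miR-127, miR-434 and miR-136 lay within the span of Rtl1, a retrotransposon-derived gene to which these miRNAs are known to be antisense.

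The reported members were diverse in seed. Only 2 pairs among them shared all 7 seed bases, miR-370-5p with miR-1193-3p and miR-381-3p with miR-539-3p. Outside the seed some neighbours were alike. Of 1891 pairs of reported members, 8 shared an unbroken run of at least 10 bases, and miR-543-3p and miR-495, which lie next to each other, shared the 11-base run ggugcacuucu near the 3′ end. The longest run, caagggcaagcucu with 14 bases, was shared by miR-300-3p and miR-381-3p. The 6 letters ACACGG or ACAUGG occurred in 9 of 62 reported members (14.5%) and in 0 of 266 other miRNAs of at least 10 CPM. The 9 were miR-493-5p, miR-379-3p, miR-411-3p, miR-323-3p, miR-494-3p, miR-495, miR-485-3p, miR-496-3p and miR-369-3p. These letters were searched in the mature strand alone and were chosen after the sequences had been seen, so the match is a description. How reads that fit more than 1 alike member were divided is not given in the sources used here. The letters are marked in capitals here, for 1 member of the upstream block and 3 of the downstream block.
miR-493-5p: uuguACAUGGuaggcuuucauu
miR-379-3p: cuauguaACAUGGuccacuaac
miR-411-3p: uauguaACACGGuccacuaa
miR-323-3p: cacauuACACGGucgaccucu

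The libraries held 744564 to 4069284 miRNA reads in cortex and 523298 to 4139901 in thalamus, and the shallowest were the sham thalamus of rat 55 (523298 reads) and the TBI thalamus of rat 56 (538194 reads). Trimmed mean of M-values (TMM) factors, which correct for library composition, ran from 0.72 to 0.92 in sham cortex, from 0.92 to 1.05 in TBI cortex and from 0.85 to 1.25 in the 2 thalamus groups, so in cortex the sham factors were the lower, with a slight overlap. In what follows, a level is CPM with TMM factors over all 24 libraries. The tissue labels were checked against miRNAs known to mark cell types. All 6 of the neuron list, with miR-124-3p and miR-128-3p among them, were present in every group, and the list summed to between 124087 and 612092 CPM per library. All 3 of the oligodendrocyte list, miR-219a-5p, miR-219a-2-3p and miR-338-3p, were higher in thalamus than in cortex in both sham and TBI rats. 1 library stood apart for the members, the sham thalamus of rat 55, and most of the described thalamic differences that involve sham rats are given with and without it.

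The cluster made up a small share of miRNA reads, dominated by few members. miR-434-3p was the most abundant in both regions by mean CPM without TMM factors, although miR-433-3p had the higher mean level in TBI thalamus (7462 against 7011 CPM). miR-434-3p held 17.5% of all member reads in cortex and 15.2% in thalamus, and ranked 25 and 30 among all miRNAs by mean CPM. The same 8 members held 64.3% of member reads in cortex and 62.8% in thalamus. They were miR-434-3p, miR-127-3p, miR-433-3p, miR-411-5p, miR-379-5p, miR-543-3p, miR-434-5p and miR-541-5p. The 5 hairpins within the span of Rtl1 alone gave 44.4% ± 2.49 (SD, n = 6) of member reads in sham cortex and 44.6% ± 3.602 (SD, n = 6) in sham thalamus. At the other end, 26 of the 63 reported members in cortex and 21 of the 63 in thalamus lay between 10 and 100 CPM. Read counts also carry the efficiency with which each sequence is ligated and amplified, so the order of levels among different miRNAs is approximate.

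**Figure D1:**
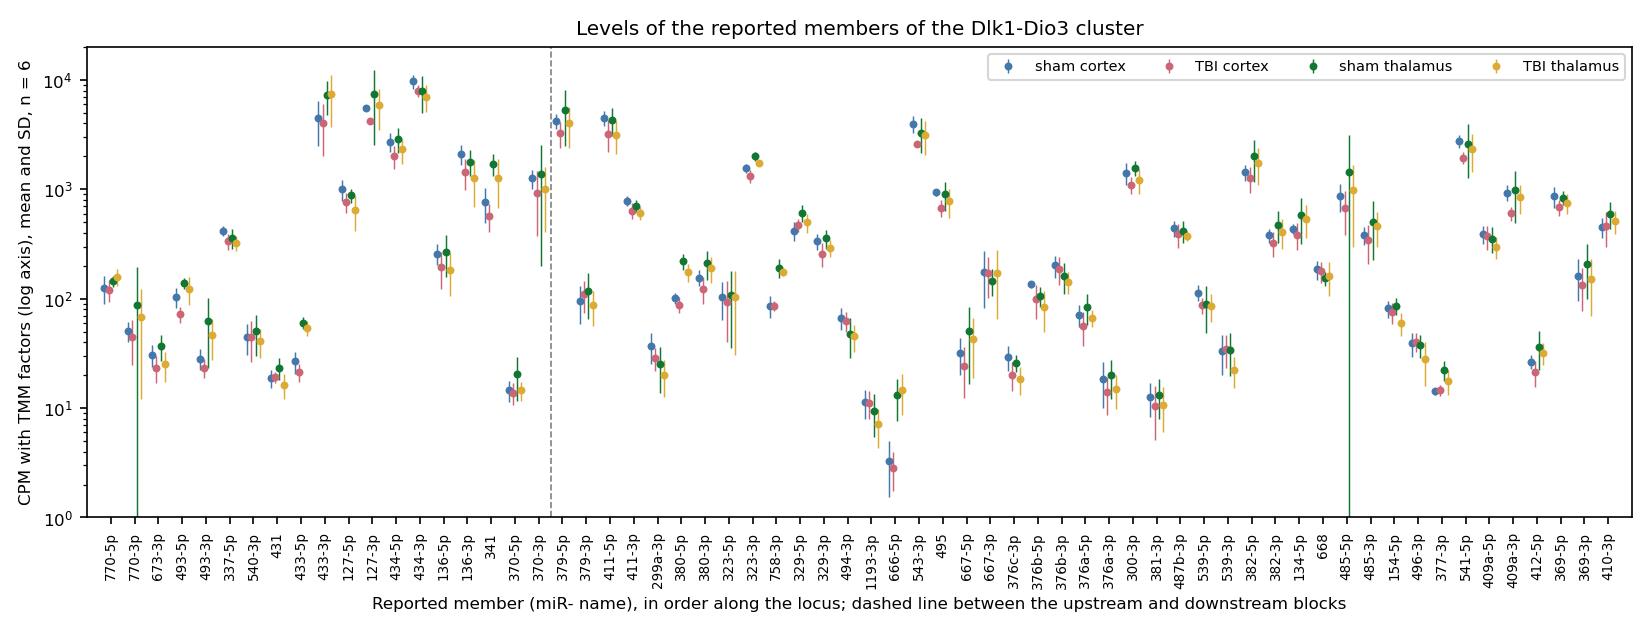
Level of each reported member in CPM with TMM factors on a log axis, as mean and SD of 6 libraries, for sham cortex, TBI cortex, sham thalamus and TBI thalamus, in order along the locus. Levels ran over several orders of magnitude within each block, with miR-434-3p highest at 9699 CPM in sham cortex, and miR-666-5p was the one member with means under 4 CPM in both cortex groups.

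Neighbours in the order of levels mostly overlapped. Of the 63 neighbouring pairs, 61 overlapped in range in sham cortex, 60 in TBI cortex and all 63 in each thalamus group. The step from miR-434-3p to miR-127-3p was the one at the top of the order that separated in both cortex groups. miR-434-3p lay between 7279 and 11308 CPM in sham cortex and between 6383 and 9129 CPM in TBI cortex, above every value of miR-127-3p there. In sham thalamus the same pair overlapped widely, miR-434-3p lying between 3185 and 10465 CPM and miR-127-3p between 3803 and 17306 CPM. Next in sham cortex came miR-411-5p at 4519 ± 707 CPM and miR-433-3p at 4451 ± 1966 CPM (SD, n = 6 each), and there miR-433-3p had the largest SD of the 8. miR-379-5p was at 4200 ± 654 CPM, miR-541-5p at 2761 ± 379.4 CPM and miR-434-5p, the other arm of the leading hairpin, at 2713 ± 538.7 CPM.

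Summed over the 90 members, the level was 58152 ± 2257 CPM (SD, n = 6) in sham cortex and 45618 ± 3360 CPM (SD, n = 6) in TBI cortex. The sham rats lay between 55426 and 61062 CPM and the TBI rats between 40659 and 49675 CPM, so the groups did not overlap. As a plain share of miRNA reads, with no TMM factor, they did overlap, with 4.81% ± 0.351 in sham cortex and 4.50% ± 0.281 in TBI cortex. The gap in cortex therefore depended on the scaling. In thalamus the sum was 64774 ± 15150 CPM in sham rats and 54621 ± 11303 CPM in TBI rats, with shares of 7.05% ± 0.542 and 5.99% ± 0.766. Without rat 55 the sham thalamus had 58741 ± 3740 CPM (SD, n = 5) and a share of 6.84% ± 0.185. On the share the cluster was larger in thalamus, where the lowest sham library had 6.66%, than in cortex, where the highest sham library had 5.33%. On the sum with TMM factors the sham regions overlapped, with 55603 to 64123 CPM in thalamus without rat 55. The regional gap thus depended on the scaling too. These sums are descriptions and were not tested.

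**Figure D2:**
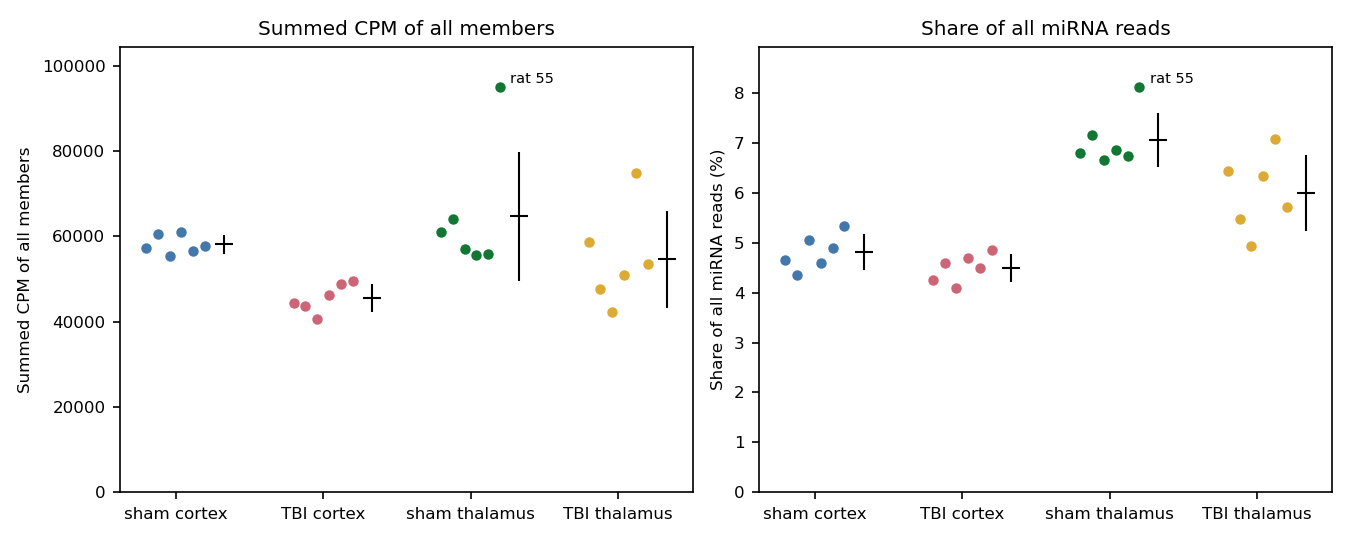
Summed CPM with TMM factors (left) and share of all miRNA reads in percent (right) of the 90 members, 1 point per library, with mean and SD in black for 6 libraries per group. TBI cortex sits at 40659 to 49675 CPM, below sham cortex on the left axis, whereas the shares on the right overlap in cortex, and rat 55 is the highest sham thalamus library on both axes.

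The first question was which members differed between TBI and sham rats in the perilesional cortex. Among 63 reported members tested, miR-543-3p, miR-127-3p and miR-409a-3p fell after injury and none rose, by edgeR's quasi-likelihood test with Benjamini-Hochberg adjustment over all 371 miRNAs tested. Over all miRNAs 2.7% were called lower and 2.96% higher, so 3 of 63 is close to that background. In TBI rats miR-127-3p fell by 21.6%, miR-543-3p fell by 31.6% and miR-409a-3p fell by 33.3% of the sham level.

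miR-543-3p, of the downstream block, was at 3973, 4636, 3018, 4774, 3916 and 3330 CPM in the sham rats and at 2422, 2611, 2728, 2564, 2691 and 2629 CPM in the TBI rats. Every TBI library lay below every sham library, and the TBI rats were the more alike. The log2 fold change was -0.55 (SE 0.13) with an adjusted p of 0.0361. Its other arm, miR-543-5p, stood at 1.34 to 8.63 CPM in cortex and was not tested there.

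miR-127-3p, of the upstream block, is known to pair fully with Rtl1 messenger RNA. It was at 5089, 5800, 5468, 5921, 5808 and 5082 CPM in the sham rats and at 4520, 4252, 4242, 4169, 4079 and 3936 CPM in the TBI rats. Here too the groups did not overlap on levels with TMM factors. Without these factors, which were mostly lower in sham than in TBI cortex, the ranges overlapped. The log2 fold change was -0.35 (SE 0.09) with an adjusted p of 0.0369. The other arm, miR-127-5p, had a like fold change of -0.34 (SE 0.16) and an adjusted p of 0.235.

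miR-409a-3p was lowest at 723, in the middle at 992 and highest at 1098 CPM in the sham rats, and the same values were 493.1, 594 and 731 CPM in the TBI rats. The highest TBI library, that of rat 56, lay just above the lowest sham library, so the ranges met at 1 library of each group. The log2 fold change was -0.58 (SE 0.16) with an adjusted p of 0.0369. The other arm, miR-409a-5p, was at 387 ± 72.9 CPM in sham and 371 ± 94.9 CPM in TBI cortex, with a fold change of -0.01 (SE 0.18) on the log2 scale and an adjusted p of 0.983.

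Just past the threshold came miR-495 and miR-541-5p. miR-495 was at 871 to 1069 CPM in the sham rats and at 554 to 843 CPM in the TBI rats, without overlap, and differed by -0.44 on the log2 scale (SE 0.12) with an adjusted p of 0.0507. miR-541-5p differed by -0.47 (SE 0.14) with an adjusted p of 0.0667. On levels with TMM factors, groups without overlap and lower in TBI were thus found for miR-543-3p, miR-127-3p and miR-495, against 1.62% of all miRNAs tested. None was found in the other direction (0.809%).

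The direction was shared more widely than the calls. In cortex 51 of 63 reported members had a log2 fold change below 0, against 42.6% of all miRNAs tested (57.4% lay above 0), and the median was -0.25 over the members and 0.12 over the miRNAs outside the list. The edgeR p before adjustment was under 0.05 for 9 of the 63 members and for 81 of all 371 miRNAs, which is the larger share. Both blocks lay below 0, with medians of -0.28 upstream and -0.21 downstream, and within the span of Rtl1 8 of 9 members did so, with a median of -0.34. The members are neighbours scaled together and not independent of each other, so these counts are descriptions.

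The calls rested on the scaling and on single libraries. With library size alone the median of all miRNAs moved from 0.05 to 0.25 and that of the members from -0.25 to -0.03, 35 of 63 members lay below 0, no member passed, and the calls over all miRNAs went from 11 higher and 10 lower to 36 higher and 3 lower. The distance between the median of the members and that of the other miRNAs stayed at -0.38 with TMM factors and -0.37 with library size. Leaving out 1 rat at a time gave 0 to 5 members called, with none left without sham rat 26, 32, 38 or 50 or TBI rat 45, 1 left without TBI rat 24 (miR-495, not one of the 3) or 63 (miR-543-3p), and 2 left without TBI rat 52. In a fit of all 24 libraries with the rat as a random block, limma gave the 3 members adjusted p values of 0.213 (miR-543-3p and miR-409a-3p) and 0.439 (miR-127-3p).

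Some neuron miRNAs were lower in injured cortex as well. The 6 of the list ranged from -0.75 to 0.15 on the log2 scale with a median of -0.25, and 4 were not called. Of the 6, miR-128-3p and miR-132-3p were called lower in TBI cortex, by -0.75 and -0.55 on the log2 scale (SE 0.16 and 0.14) at adjusted p of 0.0231 and 0.0369, and the list summed to 331583 to 612092 CPM in sham and 252089 to 334262 CPM in TBI cortex. Of the 7 microglia and leukocyte miRNAs none was called in cortex, with sums of 5093 to 7245 CPM and 6138 to 7857 CPM. No marker of either list was at 0 in every library of a group. Their part in the lower levels of the members was not tested.

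**Figure D3:**
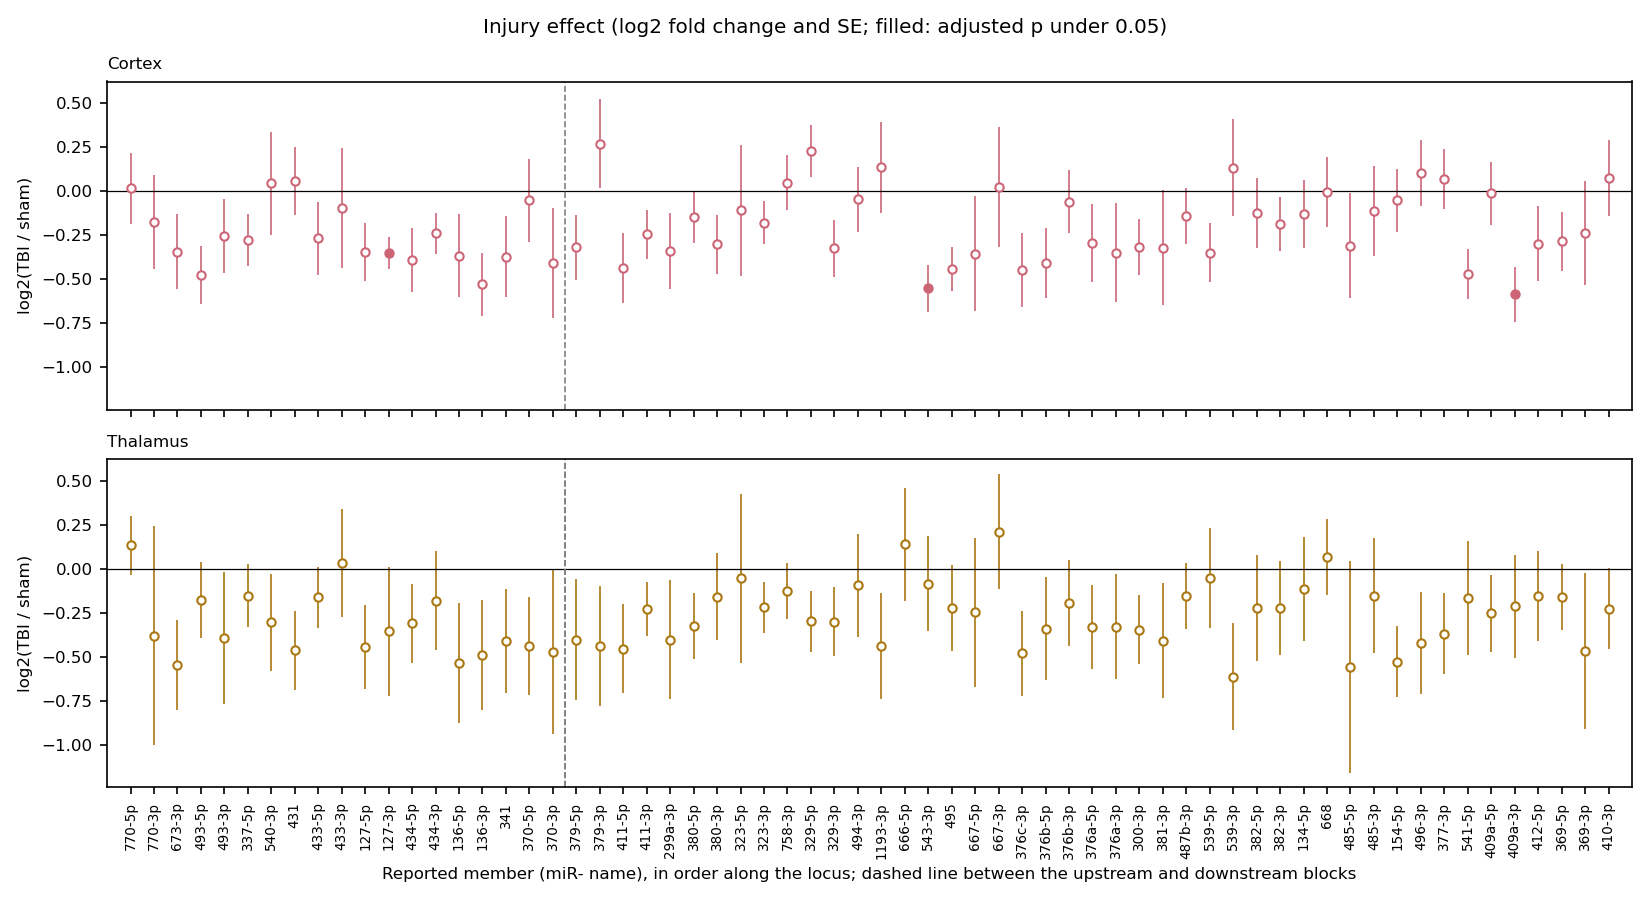
Log2 fold change of TBI against sham rats with its SE for each reported member in cortex (top) and thalamus (bottom), in order along the locus, with filled points for an adjusted p under 0.05. Most points lie below 0 in both panels, 51 of 63 in cortex and 59 of 64 in thalamus, and 3 are filled, all in cortex. miR-666-5p was too low to be tested in cortex.

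**Figure D4:**
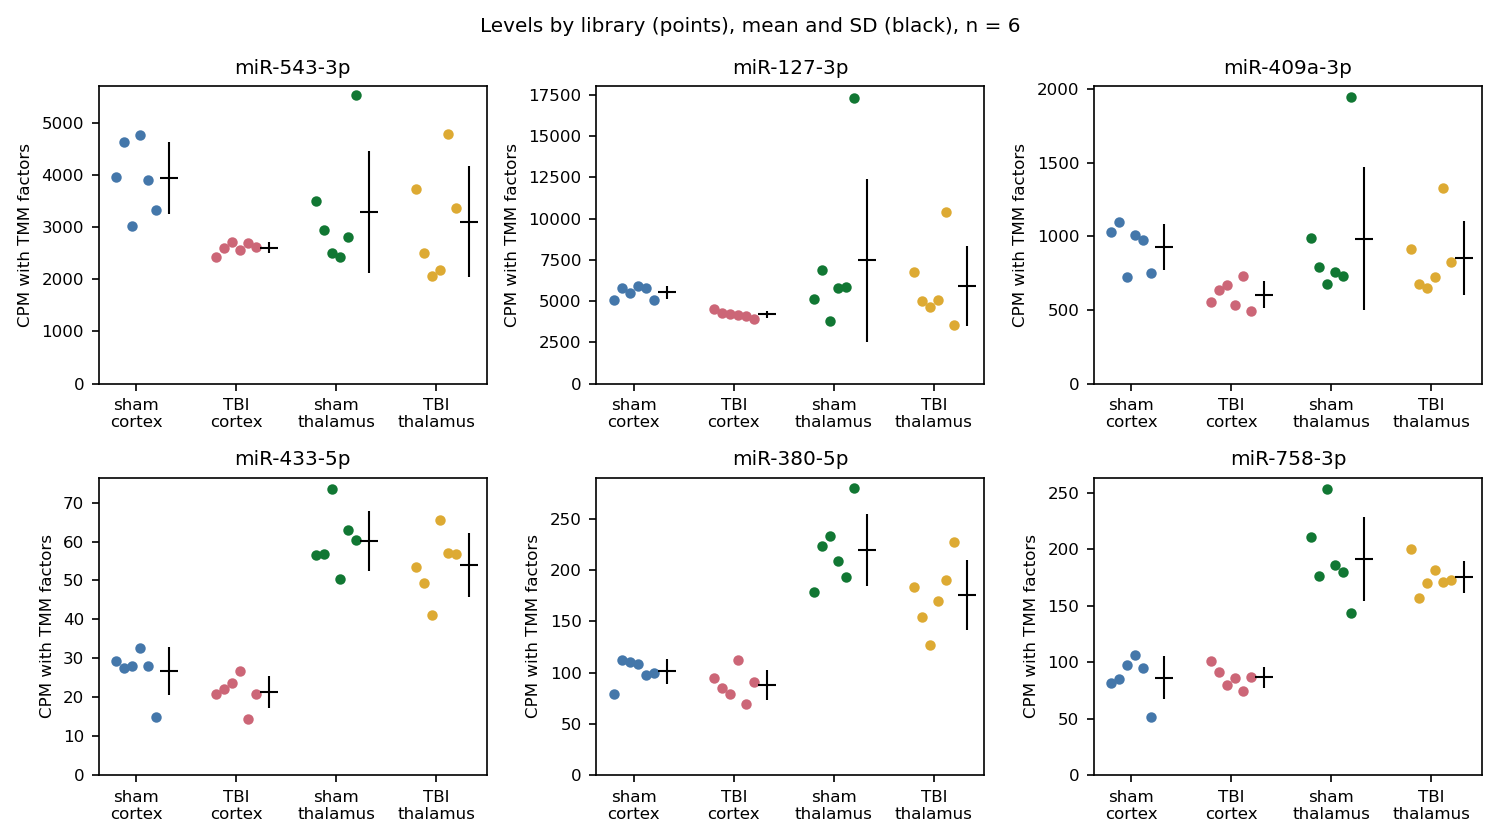
Level of 6 members in each library, in CPM with TMM factors, with mean and SD in black for 6 libraries per group. The top row shows the 3 members that fell in injured cortex, with the sham thalamus of rat 55 high in each, and the bottom row 3 members that were higher in thalamus than in cortex in both groups.

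In the ipsilateral thalamus no reported member passed the test among 64, and 0% of all 390 miRNAs tested were called lower and 0.513% higher. At an unadjusted p under 0.05 edgeR gave 1 member and 22 miRNAs in all, and DESeq2 called none of the members. The member was miR-154-5p, at 60.4 to 107 CPM in the sham rats and 33.4 to 70.5 CPM in the TBI rats, a log2 difference of -0.52 (SE 0.20) with an adjusted p of 0.576. No member had groups without overlap, beside 0.256% of all miRNAs lower and 1.03% higher in TBI rats. Without rat 55 the value of miR-154-5p was -0.51 (SE 0.20, adjusted p 0.429). Next by p came miR-673-3p at -0.54 (SE 0.25), miR-431 at -0.46 (SE 0.22), miR-539-3p at -0.61 (SE 0.30) and miR-376c-3p at -0.48 (SE 0.24), each with an adjusted p of 0.774. Without rat 55 these were -0.34 for miR-673-3p, -0.37 for miR-431, -0.67 for miR-539-3p and -0.40 for miR-376c-3p, and none was called.

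In thalamus too most members lay below 0. In all, 59 of 64 members had a log2 fold change below 0, against 52.8% of all miRNAs (47.2% above 0), with medians of -0.30 and -0.03. Without sham rat 55 the number below 0 was 43 and the median of the members was -0.16, but all miRNAs moved upwards as well, to 60.6% above 0 and a median of 0.09. The distance between the median of the members and that of the other miRNAs was -0.33 with and -0.29 without that rat. It was smallest without TBI rat 45, at -0.22, where 52 members lay below 0 and their median was -0.17. In the sham thalamus of rat 55 miR-127-3p reached 17306 CPM, while the other sham rats had 3803 to 6911 CPM. There miR-409a-3p reached 1947 CPM against 674 to 990 CPM. Of the 6 microglia and leukocyte miRNAs tested in thalamus, both miR-155-5p and miR-146a-5p were called higher in TBI rats. Both stand on this list, although the study cites links of miR-146a to reactive astrocytes and of miR-155 to activated glia, astrocytes among them. The list summed to 9634 to 15639 CPM in sham and 9571 to 15205 CPM in TBI rats, and no neuron miRNA was called. All 6 neuron miRNAs nonetheless had values below 0 there, from -0.61 to -0.12 with a median of -0.33, beside the median of -0.30 of the members. Their part in the values of the members was not tested.

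Below 0 in both regions were 49 of the 63 members tested in both (77.8%), against 35.7% of 361 miRNAs. That count includes rat 55, without which 43 of 64 members lay below 0 in thalamus, and it was not repeated without that rat. The same rats gave both regions, so the 2 comparisons are not separate evidence. The difference of the injury effect between the regions was tested directly, and no member passed. None of 407 miRNAs tested did (0% called, 48.9% above and 51.1% below 0), with 16 at an unadjusted p under 0.05 and 0 of these a member, and DESeq2 called none either. The smallest p among members belonged to miR-329-5p, with a log2 difference of -0.47 (SE 0.23), whose fold change was 0.23 (SE 0.15) in cortex and -0.30 (SE 0.18) in thalamus. miR-543-3p followed with 0.51 (SE 0.29), and it was at -0.55 in cortex and -0.08 (SE 0.27) in thalamus. Its level was 5542 CPM in the sham thalamus of rat 55 and 2844 ± 429 CPM (SD, n = 5) in the other sham rats. Without rat 55 the differences were -0.62 (SE 0.22) for miR-329-5p and 0.76 (SE 0.26) for miR-543-3p, each at an adjusted p of 0.344, and no member was called. The fits thus called no difference between the regions, which does not show that the regions were alike.

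The second question was how the cluster differed between the regions. In sham rats 9 of 64 reported members were higher in thalamus than in cortex and none was lower, by the same test in a fit of all 24 libraries, while 12.8% of 407 miRNAs were called higher and 12.3% lower. In TBI rats 10 were higher and none lower, against 14% and 13.3%. miR-666-5p, among them in both, was a reported member only through its level in thalamus, and with a minimum mean of 10 CPM over all libraries 8 of 62 members were called in sham and 9 of 62 in TBI rats. The share called higher was therefore near the background. With library size alone 31 members were called higher in sham and 14 in TBI rats, as the median of all miRNAs moved from 0.04 to 0.46 and from -0.03 to 0.15, and the calls over all miRNAs went from 52 higher and 50 lower to 146 and 22 in sham rats and from 57 and 54 to 69 and 34 in TBI rats. miR-758-3p, miR-380-5p, miR-433-5p, miR-666-5p, miR-341, miR-493-3p and miR-323-3p passed in both, which is 77.8% of the 9 and 70.0% of the 10.

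miR-758-3p, of the downstream block, was at 86.2 ± 19.0 CPM (SD, n = 6) in sham cortex and 192 ± 37.3 CPM in sham thalamus. The libraries ran from 51.8 to 106 CPM in cortex and from 143 to 254 CPM in thalamus and did not overlap. It was higher in thalamus by 1.15 on the log2 scale in sham rats (SE 0.16, adjusted p 5.56e-06) and by 1.02 in TBI rats (SE 0.16, adjusted p 2.62e-05).

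miR-380-5p was at 101 ± 12.4 CPM in sham cortex and 220 ± 35.5 CPM in sham thalamus, and at 88.3 ± 14.7 and 175 ± 34.1 CPM in TBI rats (SD, n = 6 each). Neither pair overlapped. On the log2 scale the differences were 1.11 (SE 0.16, adjusted p 6.41e-06) and 0.98 (SE 0.16, adjusted p 3.34e-05). The other arm, miR-380-3p, passed in TBI rats alone, with 0.62 (SE 0.21, adjusted p 0.0335) against 0.44 (SE 0.21, adjusted p 0.139) in sham rats, and the difference between those values was not called.

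miR-433-5p lies in the upstream block within the span of Rtl1. It was at 26.7 ± 6.15 CPM in sham cortex and 60.1 ± 7.81 CPM in sham thalamus, and at 21.4 ± 4.12 and 53.9 ± 8.23 CPM in TBI rats. On the log2 scale the differences were 1.15 (SE 0.18, adjusted p 1.92e-05) and 1.30 (SE 0.18, adjusted p 6.38e-06). It is the minor arm, holding 0.725% ± 0.355 (SD, n = 6) of the reads of both arms in sham cortex. miR-433-3p had 0.70 (SE 0.33, adjusted p 0.135) in sham and 0.89 (SE 0.34, adjusted p 0.0487) in TBI rats. Its call in TBI rats was lost in 6 of the 12 fits that left out 1 rat (26, 32 or 38 of the sham rats, 22, 52 or 56 of the TBI rats), with adjusted p from 0.0534 to 0.122.

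miR-341, whose sequence above repeats the letters CGGU, was at 764 ± 271 CPM in sham cortex and 1712 ± 378.7 CPM in sham thalamus. In TBI rats it was at 573 ± 164 CPM and 1274 ± 604 CPM, and there the regions overlapped. On the log2 scale the differences were 1.16 (SE 0.28, adjusted p 0.00234) and 1.15 (SE 0.28, adjusted p 0.00264).

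miR-666-5p rested on few reads, with 0 to 10 per library in sham cortex and 1 to 7 in TBI cortex. It was at 3.28 ± 1.75 CPM in sham cortex, with no read in rat 34, and at 13.1 ± 5.49 CPM in sham thalamus. The groups did not overlap in sham or in TBI rats. Its fitted log2 fold changes were 2.00 (SE 0.41, adjusted p 0.000605) and 2.24 (SE 0.41, adjusted p 0.000174), which at these counts depend on the prior count of the fit. Since thalamus alone brought miR-666-5p past the minimum for a reported member, its higher level there is a description. Without rat 55 the sham differences of the 5 members just described were 1.12 (miR-758-3p), 1.04 (miR-380-5p), 1.05 (miR-433-5p), 1.02 (miR-341) and 1.97 (miR-666-5p), and all 5 stayed called.

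The other called members differed less. In sham rats miR-493-3p was higher in thalamus by 1.07 (SE 0.30), and by 0.73 without rat 55. miR-377-3p was higher by 0.67 (SE 0.19), miR-329-5p by 0.55 (SE 0.16) and miR-323-3p by 0.37 (SE 0.12), and without rat 55 these were 0.75, 0.69 and 0.39. In TBI rats miR-493-5p was higher by 0.76 (SE 0.18) and miR-493-3p by 0.97 (SE 0.30). Groups without overlap and higher in thalamus were found for 6 members in sham rats and 5 in TBI rats, against 7.37% and 4.91% of all miRNAs, and none lower (6.63% and 6.88%). Both counts include miR-666-5p, which only its level in thalamus made a reported member. The median of the members was 0.14 in sham and 0.15 in TBI rats, beside 0.04 and -0.03 over all miRNAs. Without rat 55 the fit called 9 members higher and 1, miR-539-5p, lower in sham rats, and 12 higher in TBI rats. Without TBI rat 56 it called 6 higher in TBI rats, and miR-323-3p, miR-380-3p, miR-433-3p and miR-493-3p were lost.

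**Figure D5:**
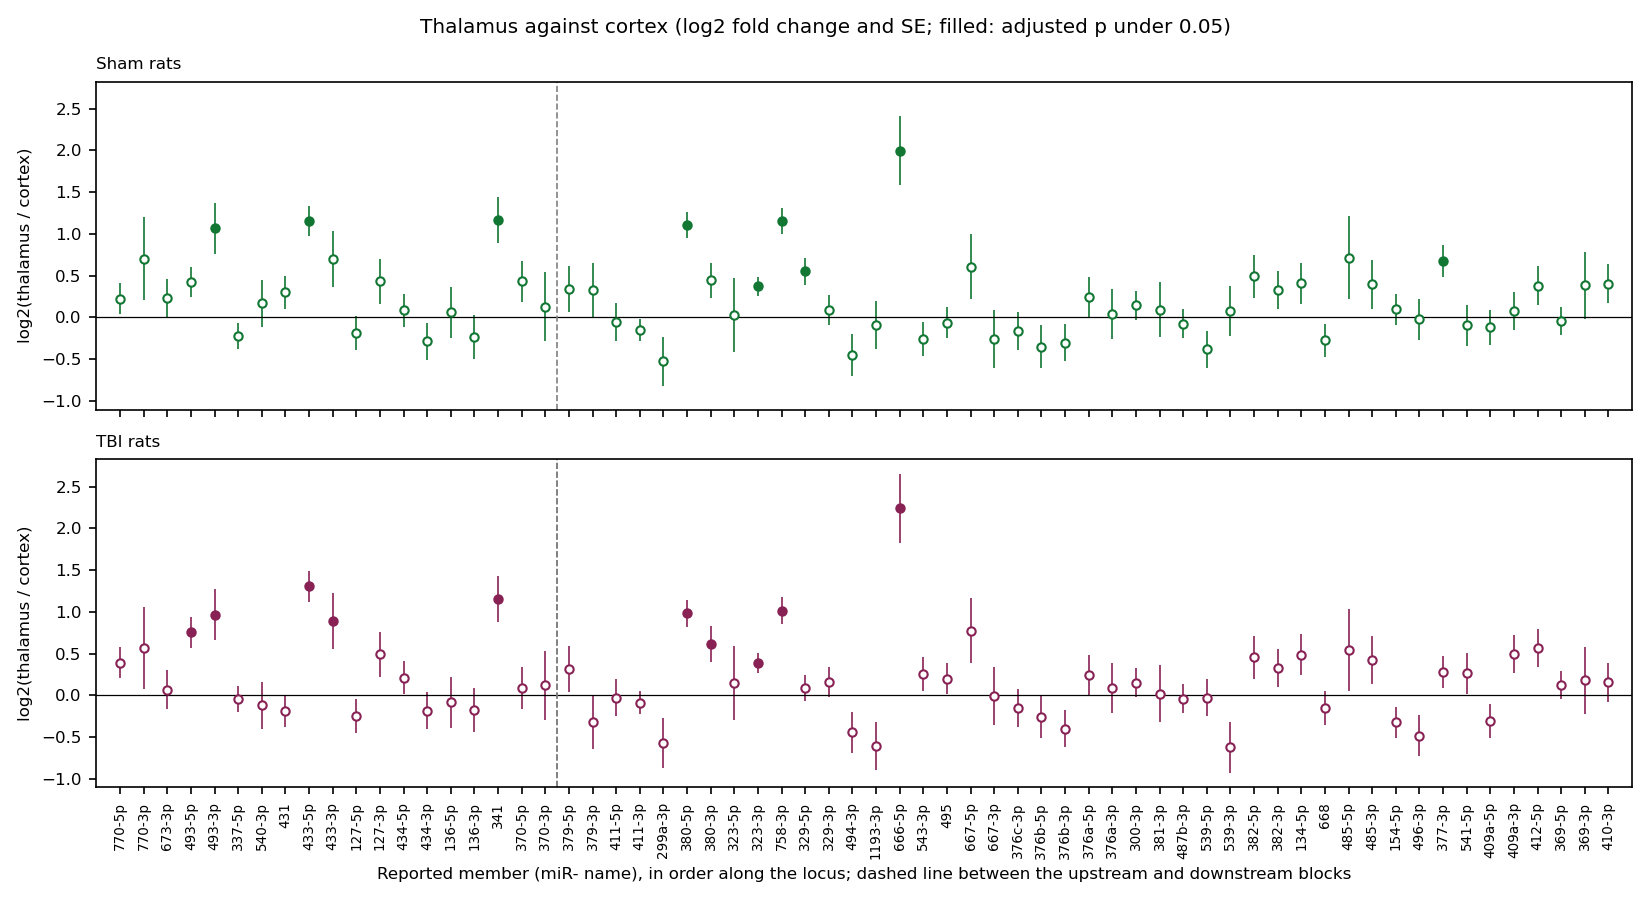
Log2 fold change of thalamus against cortex with its SE for each reported member in sham rats (top) and TBI rats (bottom), in order along the locus, with filled points for an adjusted p under 0.05. All filled points lie above 0, 9 in sham and 10 in TBI rats. The highest point in each panel is miR-666-5p, which counts as reported only through its level in thalamus.

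Other tissue markers differed between the regions as well. Of the neuron list, 5 of 6 were lower in thalamus in sham rats and all 6 in TBI rats, with sums of 169445 to 326531 CPM in sham thalamus against 331583 to 612092 CPM in sham cortex. The oligodendrocyte list summed to 10134 to 17584 CPM in sham thalamus and 3584 to 4320 CPM in sham cortex. The choroid plexus and ependyma list was higher in thalamus in 2 of 3 tested in sham rats, with a median of 2.25 on the log2 scale, and in 3 of 3 in TBI rats, from 1.49 to 1.98. Its sum was 2506 to 7836 CPM in sham thalamus and 2026 to 19884 CPM in TBI thalamus, where the median was 3295 CPM. Of the 3 muscle miRNAs, 2 were lower in thalamus in each group, and neither red cell miRNA tested was called. The part of these lists in the regional values of the members was not tested.

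The 2 arms of a hairpin come from 1 precursor and are usually kept in unequal amounts. Of 40 member hairpins with both arms in the tables and at least 10 CPM together, 16 had most reads on the 5p arm (40.0%), compared with 51.3% of 195 hairpins in all. Of the 40, 15 had under 10% of reads on the 5p arm and 5 had over 90%. For miR-541 the 5p arm held 99.8% and for miR-758 it held 0.0623%.

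miR-329 was the member hairpin whose arms shifted between groups in cortex. Its 5p arm held 55.3% ± 4.29 (SD, n = 6) of the reads of both arms in sham cortex, between 48.9% and 59.4%, and 64.8% ± 3.87 in TBI cortex, between 60.2% and 69.6%. The groups did not overlap, and no other hairpin of the 195 separated in that comparison (0.513%). Each cortex library had at least 401 reads of the 2 arms, and no hairpin separated between TBI and sham thalamus (0%). The levels moved in opposite directions, by 0.23 on the log2 scale (SE 0.15, adjusted p 0.336) for miR-329-5p and -0.32 (SE 0.16, adjusted p 0.251) for miR-329-3p, neither of which passed. In thalamus the 5p arm held 63.2% ± 3.55 in sham rats, above the sham cortex without overlap (1.54% of hairpins did so in either direction), and 63.1% ± 5.53 in TBI rats. The arm shares were described and not tested. For miR-494 the TBI thalamus lay below the TBI cortex without overlap (0.513%), on libraries with as few as 13 reads.

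The members were little correlated with each other among rats of a group. After the group means were removed, the median correlation between pairs of members was 0.05 in cortex and 0.06 in thalamus over 12 libraries each. Between other miRNAs it was -0.01 and 0.02. With library size alone it was 0.11 and 0.06 for members and 0.11 and 0.14 for the others, so the comparison depended on the scaling. Both arms of 1 hairpin were more alike, with medians of 0.30 and 0.13 over 20 hairpins. Within the upstream block the median was 0.02 in cortex and 0.15 in thalamus, and within the downstream block 0.09 and 0.04. All pairs share the same libraries and scaling, so these are descriptions.

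Depth moved with the members, in opposite directions for different ones. In thalamus the deviation of a member from its group mean had a correlation beyond 0.5 in size with the deviation of log2 depth over 12 libraries for many of the 64 members, 17 of them positive and 26 negative. Outside the list this held for 59.7% of miRNAs, beside 67.2% of the members. In cortex it was 30.2% of the members and 31.9% of the others. Deeper thalamus libraries had lower levels of miR-541-5p (r = -0.95), miR-409a-3p (r = -0.88) and miR-127-3p (r = -0.87), and higher levels of miR-379-3p (r = 0.93) and miR-154-5p (r = 0.89). Without the 2 shallowest libraries, those of rats 55 and 56, the share was 39.1% of the members and 38.1% of the others. Then r was -0.86 for miR-541-5p, -0.54 for miR-409a-3p, -0.52 for miR-127-3p, 0.72 for miR-379-3p and 0.51 for miR-154-5p. Of the members called lower in injured cortex, none reached 0.5 there, with r = 0.34 for miR-543-3p, 0.47 for miR-127-3p and 0.09 for miR-409a-3p. The part of depth in the thalamic values was not tested.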

How the data were processed

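Small RNA reads came from perilesional cortex and ipsilateral thalamus of 6 sham and 6 TBI rats, 24 libraries in all. The deposited values were raw counts of reads per miRNA, which the authors made with NEBNext libraries on a NextSeq 500, with adapters removed at base calling, FastQC checks and mapping to the rat assembly RGSC3.4 with miRBase annotation. The aligner is not given in the sources used here. The cortex table also held 444 tRNA rows, which were left out, and the normalized tables were not used. Depth ran from 523298 to 4139901 miRNA reads.

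Counts were tested with edgeR 4.0.16 (R 4.3.3) by its quasi-likelihood test, after filterByExpr and TMM scaling, with Benjamini-Hochberg adjustment over all miRNAs tested and a threshold of 0.05. The injury effect was fitted within each region on 12 libraries. The regional contrasts and the difference of the injury effect were fitted on all 24, without a term for the rat. Because the same rats gave both regions, the libraries were paired by design. The deviations of the 2 libraries of a rat from their group means had a median correlation of 0.385 over 12 rats (range -0.183 to 0.640, 8 above 0.1), against -0.06 between rats of a group. A fit with the rat as a block was therefore an alternative. DESeq2 1.42.0, limma 3.58.1, other scalings and filters, and leaving out each rat were tried as well. The test was checked on simulated counts.

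Described in detail were called members (up to 10 per contrast), the 8 with the highest mean CPM in each region, the 5 with the smallest p in each injury contrast and in the difference, and the other arm of called members. The members and the marker lists were chosen with earlier results of these data known. Mature sequences and positions were taken from RefSeq (GRCr8), by name. Group means are given with the SD over 6 rats. Figures were drawn with matplotlib 3.10.9.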

Additional observations from a re-analysis of the deposited data

Results flagged for a closer look

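In 11 of 112 groups of 6 libraries examined, the highest or lowest library lay farther from its nearest neighbour than Dixon's criterion allows (a gap over 0.625 of the range), where chance alone gives about 1 group in 20, or 5.6.

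Of these, 7 were the sham thalamus of rat 55, the shallowest library, and in each it was the highest. The level of miR-127-3p was 17306 CPM there, with the next sham rat at 6911 CPM. miR-543-3p reached 5542 CPM (next 3510), miR-409a-3p 1947 CPM (next 990.1) and miR-495 1421 CPM (next 949.99). At lower levels, miR-493-3p reached 139 CPM (next 64.0) and miR-673-3p 55.96 CPM (next 37.6). The sum over all members was 94934 CPM, and 64123 CPM in the next library.

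The other 4 were scattered over libraries. miR-541-5p was lowest in the sham cortex of rat 34, at 2011 CPM, with the next library at 2816 CPM. miR-433-5p was lowest in the sham cortex of rat 55, at 14.8 CPM (next 27.4). miR-154-5p was lowest in the TBI thalamus of rat 56, at 33.4 CPM (next 58.1), which is the library with the second fewest reads. miR-493-3p was highest in the TBI cortex of rat 63, at 32.02 CPM (next 23.0).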

How the results depend on the processing

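The members described in a contrast for a call, or for a p among the smallest, kept their sign there. The other arms were not part of that check, and other members changed sign with library size alone. Then 35 instead of 51 of 63 members lay below 0 in injured cortex, and the median of the members for the difference between regions went from 0.01 (34 of 64 above 0) to -0.25 (7 of 64), while that of all miRNAs went from -0.00496 to -0.27. The count of members called in injured cortex, 3, was the least stable. It was 0 with library size alone, 0 in a fit of all 24 libraries and 0 with the rat as a random replicate block in limma, 1 without the filter on low counts, 5 with DESeq2 size factors in edgeR, 5 with a minimum mean of 10 CPM and 6 with the DESeq2 Wald test. With TMM factors from miRNAs outside the list, an alternative chosen after seeing the data, it was 5, with miR-495 and miR-541-5p added. Leaving out 1 rat at a time gave 0 to 5. The cause of these shifts was not tested.

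No member was called in thalamus, or in the difference between regions, in any fit that left out 1 rat. For thalamus against cortex, leaving out 1 rat gave 8 to 10 members in sham rats and 6 to 12 in TBI rats, and library size alone gave 31 in sham rats instead of 9. With the rat as a replicate block the counts were 0 for the difference between regions, 10 in sham rats (miR-433-3p added) and 11 in TBI rats (miR-412-5p added), so the block ended no regional call. The summed level in sham cortex was 48132 CPM without TMM factors. With hairpins of at least 100 CPM, the count with separate arm shares between regions in TBI rats went from 1 to 0.

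Apart from fits that leave out 1 rat, 44 values of the main comparisons stayed within their limits and 11 moved, and of the values of single members 243 kept their call, 14 lost it and 8 gained it. Depth limits miR-666-5p and other members of few reads, and 6 rats a group limit the injury comparisons.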
